A study of Mus musculus with 30 samples.

Results

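The transcripts described here encode the AMPA receptor and its partners, and they were chosen as 10 named genes out of the 55335 in the count table. They are the pore subunits Gria1, Gria2, Gria3 and Gria4, the transmembrane AMPA receptor regulatory proteins (TARPs) Cacng2, Cacng3, Cacng4 and Cacng8, and the cornichons Cnih2 and Cnih3. All 10 were found in the table by gene identifier, and 9 had enough reads to be tested. The exception was Cacng8.

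AMPA receptors are tetrameric glutamate-gated channels that carry most fast excitatory transmission, including the cortical and limbic input to medium spiny neurons of the nucleus accumbens. The GluA2 subunit made from Gria2 is edited at the pore and makes the channel nearly impermeable to calcium, while receptors that lack it let calcium through. TARPs and cornichons bind the pore subunits, bring them to the surface and the synapse, and slow the closing of the channel.

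The libraries came from nucleus accumbens punches of female mice that carried an HA-tagged ribosomal protein (RiboTag, RT) under Cre. D1-Cre-RT mice tag the D1 receptor class of medium spiny neuron, and A2A-Cre-RT mice tag the class that expresses the adenosine A2A and dopamine D2 receptors, called D2 here. Control mice were compared with mice exposed to CWDS, short for chronic witness defeat stress, a procedure of repeatedly seeing another mouse being defeated. The sample titles divide the CWDS mice of each genotype into Resilient and Susceptible, and the series description says that they were grouped by social interaction scores. Each of the 6 groups (D1 Control, D1 Resilient, D1 Susceptible, D2 Control, D2 Resilient and D2 Susceptible) had 5 libraries, 30 in all. Each library pooled punches of 4 mice with similar scores, collected 24 h after that behavioural test. All groups carried the RiboTag allele and a Cre driver, so the 2 classes were compared between 2 lines of mice. The mice's age is not given in the sources used here.

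Total gene counts ran from 28996168 to 65882152 per library. The D1 marker list (7 of 7 genes measured) summed to 1736 to 2609 CPM (counts scaled to the library's size) in the D1 libraries against 281 to 1858 in the D2 libraries, and the D2 list (5 of 6 measured) to 1120 to 2771 against 4867 to 12799, so the classes were enriched rather than pure. D2 Resilient replicate 5 had the highest D1 sum and the lowest D2 sum of the D2 libraries. In D1 Susceptible replicate 1 a single gene, Gm42418, took 54.9% of the counts, against at most 5.46% elsewhere. D2 Susceptible replicates 1 and 2 had counts for 15822 and 16525 genes, the fewest of the 30 libraries, with 19440 the next lowest. Members' results that rest on D2 Susceptible replicates 1 and 2 are also given without them.

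Gria4 and Cnih3 are shown first by sequence, because they were the members higher in D1 than in D2 libraries. The sequences are the 250 bases before the transcription start in RefSeq (GRCm38.p6), for Gria4 at chr9:4796235-4796484 on the minus strand and for Cnih3 at chr1:181352378-181352627 on the plus strand. Both are printed 5′ to 3′ along the gene, and capitals mark matches to the motifs searched.
Gria4: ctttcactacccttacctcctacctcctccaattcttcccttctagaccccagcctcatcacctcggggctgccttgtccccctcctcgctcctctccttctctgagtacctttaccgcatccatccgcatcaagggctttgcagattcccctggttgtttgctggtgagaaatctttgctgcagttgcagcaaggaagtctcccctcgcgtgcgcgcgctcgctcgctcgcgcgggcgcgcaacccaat
Cnih3: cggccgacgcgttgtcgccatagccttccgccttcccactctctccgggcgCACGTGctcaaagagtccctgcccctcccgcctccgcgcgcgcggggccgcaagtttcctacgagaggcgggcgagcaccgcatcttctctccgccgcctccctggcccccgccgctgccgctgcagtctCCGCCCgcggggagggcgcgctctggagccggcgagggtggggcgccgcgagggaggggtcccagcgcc
The search, on both strands, covered the GC box GGGCGG, the cAMP response element TGACGTCA and its half-site TGACG (which lies inside the full element), the E-box CACGTG, the AP-1 site TGACTCA and the TATA box TATAAA. Cnih3 held 1 E-box, at -199 from the start, and 1 GC box on the opposite strand, at -69. Over the 32851 promoters of the same table, read to 50 bases past the start, 35.7% held a GC box and 7.15% this E-box. Gria4 held none of the 6 motifs in its window. The table had entries for 7 of the 10 members, and Cnih2 was the other one with a match, to 3 GC boxes.

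Cacng8, the TARP known as gamma-8, had 2 counts in all 30 libraries together, 1 each in D1 Resilient replicates 1 and 5. Those counts allow no statement on its level. It lies on chromosome 7 at 3390683 to 3415648 (GRCm38, GENCODE M21) beside other genes that were nearly without reads. Of these, Myadm had 22 counts over all libraries, the TARP relative Cacng7 had 1 and Cacng6 had 0. Ndufa3, which starts 201725 bases past the end of Cacng8, had 133902. Why the stretch was nearly empty was not tested, and the annotation release that the authors counted with is not given in the sources used here.

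Levels between genes can be compared only per length, so the order below uses CPM per kilobase (kb) of merged exon. Gria2, Gria1 and Cnih2 stood at the top in 5 of the 6 groups. In D1 Control, Gria2 measured 101.5 ± 29.2 CPM per kb (SD, n = 5), Gria1 98.3 ± 3.25 and Cnih2 82.0 ± 13.7, with overlapping ranges. Cacng4, Gria3, Cacng2 and Cacng3 followed at 34.1, 28.0, 26.9 and 23.2 CPM per kb, again with overlapping neighbours. Cnih3 at 16.5 ± 1.96 and Gria4 at 8.84 ± 0.913 closed the order in D1 Control, each apart from its neighbour. Gria4 was the lowest tested member in all 6 groups, at 4.28 ± 1.19 CPM per kb in D2 Susceptible. The order of the upper genes depended on the length used, since Gria2 has 15.5 kb of merged exon and 2649 bases of coding sequence. Per coding length Gria2 came first in all 6 groups, and Gria1 stood at place 3 or 4.

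**Figure D1:**
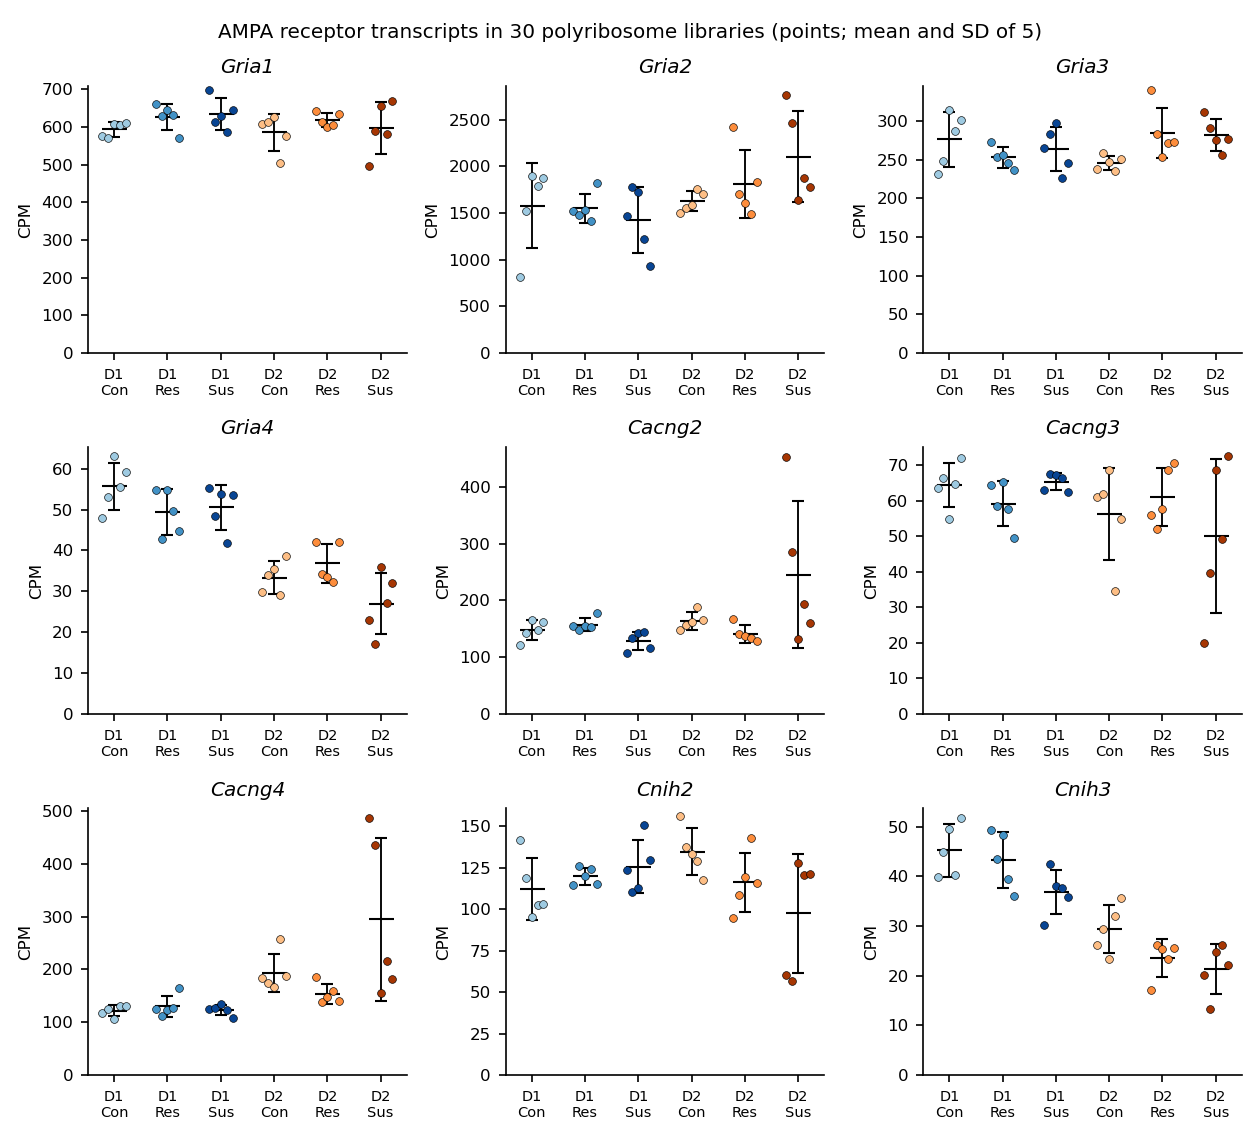
CPM of the 9 tested members (vertical axes, linear and starting at 0) in the 6 groups (horizontal axes), with a point for each library and the mean and SD of 5. Gria4 and Cnih3 are higher in the D1 groups, and D2 Susceptible is widely spread for Cacng2 and Cacng4, from 133 to 453 and from 156 to 487 CPM.

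Gria1, which encodes GluA1, was the steadiest member. It ran from 496 to 699 CPM over all 30 libraries, a ratio of 1.41 between the highest and the lowest. Group means lay between 586 ± 48.9 (D2 Control) and 635 ± 41.8 CPM (D1 Susceptible), and all ranges overlapped. Its log2 difference of D1 from D2 was 0.02 in Control (SE 0.08), 0.02 in Resilient and 0.09 in Susceptible libraries, and none passed edgeR's test.

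Gria2 varied more within groups. In D1 Control its replicates 1 to 5 measured 811, 1519, 1892, 1793 and 1876 CPM, and in D1 Susceptible 1464, 1781, 1725, 1220 and 931. In D2 Susceptible they measured 2762, 2464, 1635, 1871 and 1777. D1 Control replicate 1 and D1 Susceptible replicate 5 were thus low, and D2 Susceptible replicates 1 and 2 were above every other library. The Gria1 to Gria2 ratio of CPM per kb accordingly reached 1.83 in D1 Control replicate 1 and was lowest at 0.462 in D2 Susceptible. These ratios are descriptions and were not tested.

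Gria3, an X-linked subunit, ran from 226 to 339 CPM over the 30 libraries. Its share of the summed pore subunit level (CPM per kb) was between 10.7% and 11.9% in the 6 group means. Its log2 difference of D1 from D2 was 0.17 in Control, -0.17 in Resilient and -0.10 in Susceptible libraries, none past the threshold by edgeR.

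Gria4, which encodes the subunit GluA4 (chromosome 9, 4417896 to 4796234, minus strand), was higher in D1 than in D2 libraries. In Control, replicates 1 to 5 measured 47.9, 53.1, 63.0, 55.6 and 59.1 CPM in D1 and 29.7, 33.9, 35.4, 29.2 and 38.7 in D2. In Susceptible they measured 55.2, 48.5, 53.9, 41.8 and 53.5 in D1 and 22.9, 17.0, 36.1, 27.1 and 32.0 in D2. In both groups every D1 library was above every D2 library. The log2 difference was 0.74 in Control (SE 0.14, adjusted p = 0.000525, edgeR quasi-likelihood test with Benjamini-Hochberg adjustment over 19368 genes) and 0.90 in Susceptible (SE 0.14, adjusted p = 2.96e-05, edgeR), and 0.69 in Susceptible without D2 Susceptible replicates 1 and 2 (adjusted p = 0.000148).

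In Resilient libraries Gria4 ran from 42.9 to 54.9 CPM in D1 and from 32.3 to 42.1 in D2, again without overlap. The log2 difference there was 0.42 (SE 0.14), with an adjusted p of 0.0615 by edgeR and 0.0406 by DESeq2, which called 8.23% of all genes. Leaving out D2 Resilient replicate 5, the D2 library with the most D1 marker signal, brought edgeR's value past the threshold at a log2 difference of 0.49 (adjusted p = 0.0316), where 7.34% of all genes were called. Leaving out D1 Resilient replicate 2 or 5 did so as well, at 0.49 and 0.48, beside 5.13% and 6.05% of all genes. Gria4 made up 3.77% ± 0.299 of the summed pore subunit level in D1 Control and 2.28% ± 0.219 in D2 Control.

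**Figure D2:**
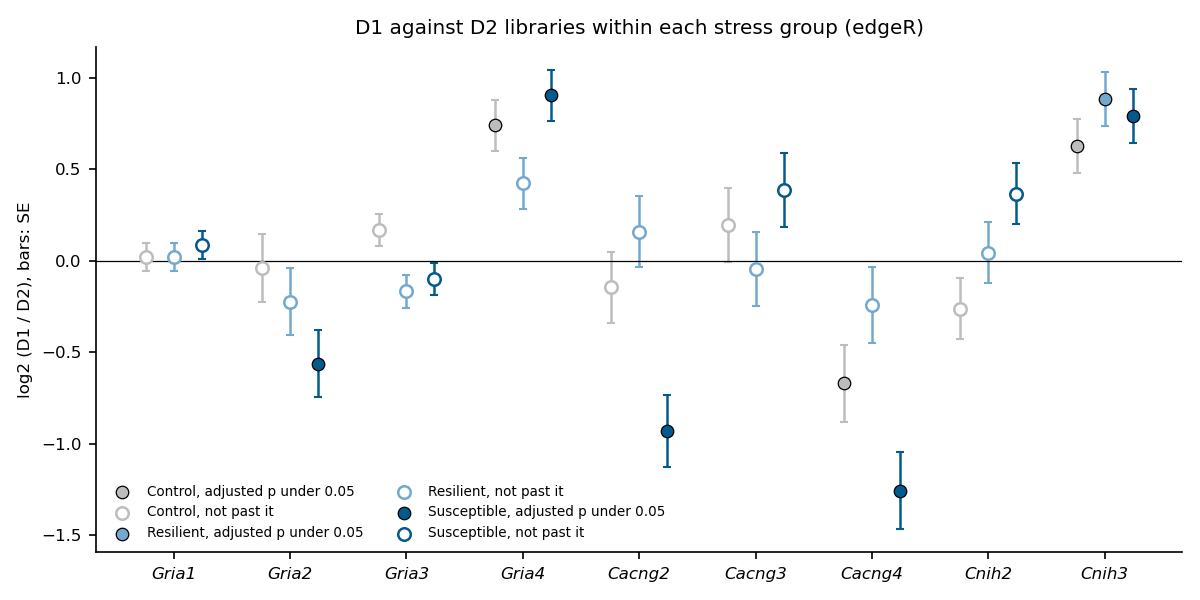
Log2 difference of D1 from D2 libraries (vertical axis; bars are SE) for 9 members (horizontal axis) in Control, Resilient and Susceptible mice, with filled points for adjusted p under 0.05. Cnih3 is filled in all 3 groups, Gria4 and Cacng4 in Control and Susceptible, and Cacng2 and Gria2 in Susceptible.

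Among the TARPs, Cacng4 (gamma-4; chromosome 11, 107732357 to 107794557, minus strand) was lower in D1 libraries. In Control, replicates 1 to 5 measured 117, 124, 106, 131 and 130 CPM in D1 and 183, 174, 166, 257 and 188 in D2, with no overlap. The log2 difference was -0.67 (SE 0.21, adjusted p = 0.0429, edgeR). This call was lost when any 1 of the 10 libraries was left out, with values from -0.71 to -0.54, and when no filter on low counts was used. In Resilient libraries the ranges overlapped and the log2 difference was -0.24 (adjusted p = 0.753, edgeR). In Susceptible libraries the log2 difference was -1.26 (SE 0.21, adjusted p = 0.000112, edgeR), and -0.55 without D2 Susceptible replicates 1 and 2 (adjusted p = 0.00237).

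Cacng2 (stargazin, gamma-2; chromosome 15, 77991748 to 78120028, minus strand) was called in Susceptible libraries, at a log2 difference of D1 from D2 of -0.93 (SE 0.19, adjusted p = 0.00116, edgeR). Its D2 Susceptible replicates 1 to 5 measured 453, 285, 133, 195 and 160 CPM, against 107 to 145 in D1 Susceptible. The first and second replicates were the highest of the 30 libraries, and the third lay inside the D1 range. Without those 2 libraries the log2 difference was -0.31 and the call ended (adjusted p = 0.0719, edgeR). Gria2 followed the same course, from -0.56 (adjusted p = 0.0267, edgeR) to -0.28 without them (adjusted p = 0.435). The Gria2 call also ended when D1 Susceptible replicate 4 or 5, or either of the D2 libraries alone, was left out, at values from -0.49 to -0.42, and when no filter on low counts was used.

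Cacng3 (gamma-3) had no call in any comparison when all libraries were used. Leaving out D2 Susceptible replicate 3 or 5 brought its D1 against D2 difference in Susceptible past edgeR's threshold, at 0.55 and 0.58, in fits that called 31.4% and 29.4% of all genes. It ran from 19.9 CPM in D2 Susceptible replicate 1 to 72.5 in D2 Susceptible replicate 5, so its lowest and highest levels fell in the same group.

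Of the cornichons, Cnih3 (chromosome 1, 181352628 to 181460641, plus strand) was higher in D1 in all 3 groups. In Control, replicates 1 to 5 measured 39.9, 44.8, 49.5, 40.2 and 51.9 CPM in D1 and 26.1, 29.5, 23.4, 32.0 and 35.7 in D2. In Resilient they measured 49.4, 43.6, 48.3, 39.4 and 36.1 in D1 and 17.0, 26.2, 25.4, 23.4 and 25.5 in D2. In neither group did the ranges overlap. The log2 difference was 0.63 (SE 0.15, adjusted p = 0.0053) in Control, 0.88 (SE 0.15, adjusted p = 0.000114) in Resilient and 0.79 (SE 0.15, adjusted p = 0.000297) in Susceptible libraries, all by edgeR. Without D2 Susceptible replicates 1 and 2 the last was 0.62 (adjusted p = 0.00227).

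Cnih2, the more abundant cornichon, was not called by edgeR with all libraries. With limma's voom weights it was called in Control at -0.40, as was Gria3 at 0.21, where 5511 of the 19368 genes were called. Its log2 difference of D1 from D2 was -0.26 in Control, 0.04 in Resilient and 0.37 in Susceptible libraries. The Susceptible value passed the threshold when D2 Susceptible replicate 3, 4 or 5 was left out, at 0.51, 0.48 and 0.48, beside 31.4%, 23.7% and 29.4% of all genes, and was 0.049 without replicates 1 and 2. The Cnih3 to Cnih2 ratio of CPM per kb was 0.207 ± 0.0492 in D1 Control and 0.110 ± 0.0279 in D2 Control.

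In all, 3 of the 9 tested members were called between D1 and D2 in Control, where 8.3% of all genes tested were called (3.51% higher and 4.8% lower in D1). In Resilient it was 1 of 9 against 6.65% (2.75% higher and 3.9% lower; 6.63% with DESeq2's size factors in edgeR), and in Susceptible 5 of 9 against 23.9%. The members' median log2 difference was 0.02, 0.02 and 0.09 in the 3 groups, beside -0.0028, -0.0035 and 0.017 over all genes. The ranges of the 5 and 5 libraries did not overlap for 3 of 9 members in Control, 2 in Resilient and 3 in Susceptible, where 11.7%, 9.7% and 8.92% of all genes did not. With D2 Susceptible replicates 1 and 2 left out, Gria4, Cnih3 and Cacng4 were the 3 members called in Susceptible, where 10.4% of all genes were called. In these bulk samples, fewer cells of a type and less RNA per cell cannot be told apart.

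**Figure D3:**
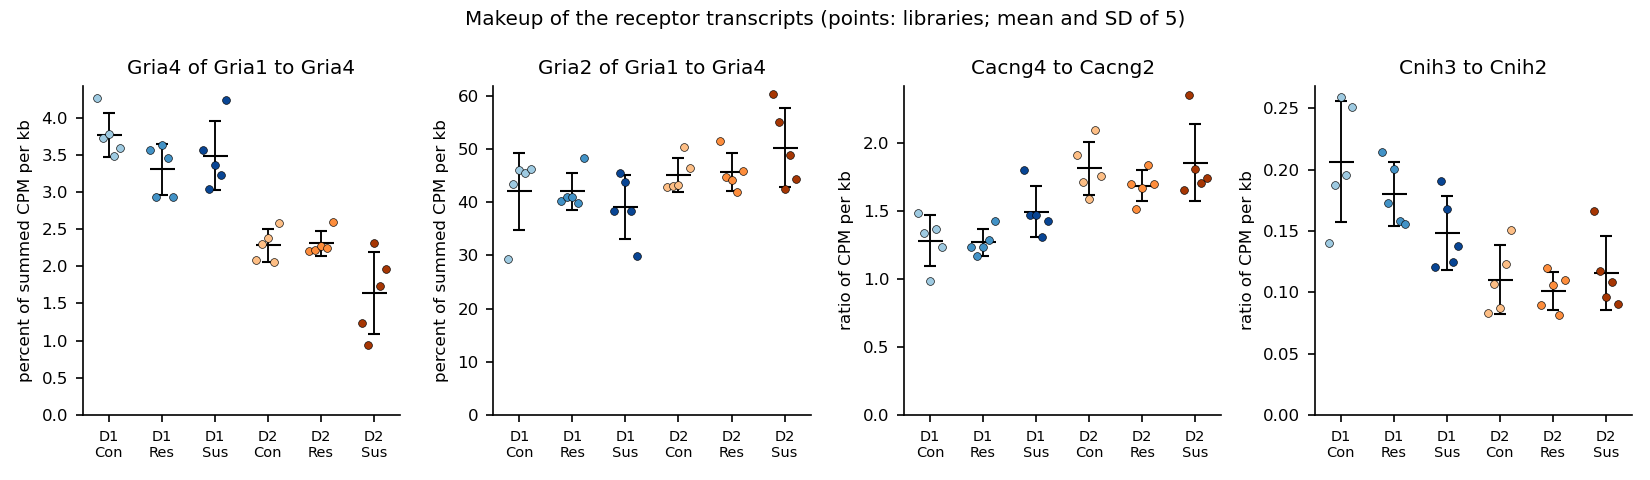
Gria4 and Gria2 as a percent of the summed CPM per kb of the 4 pore subunits, and the Cacng4 to Cacng2 and Cnih3 to Cnih2 ratios (vertical axes, starting at 0), by group, with a point for each library and the mean and SD of 5. Gria4's share is 3.30% to 3.77% in the D1 group means and 1.64% to 2.31% in the D2 means.

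Markers of other cells moved with these differences. All 8 interneuron markers were measured, and their sum was 310 to 502 CPM in D1 and 81.3 to 289 in D2 libraries. The 5 markers of cortical excitatory neurons summed to 479 to 917 CPM in D1 and 146 to 523 in D2. Endothelial markers (5 of 5) went the other way, at 11.9 to 34.1 CPM in D1 and 53.3 to 303 in D2, as did astrocyte markers (6 of 6), at 32.1 to 144 and 61.5 to 193. Among defining markers, Slc5a7 of cholinergic interneurons had 0 counts in at least 1 D2 library. Its ranges overlapped, at 1.44 to 4.86 CPM in D1 and 0 to 7.06 in D2. Slc17a7, the cortical vesicular glutamate transporter, ran from 384 to 718 CPM in D1 and from 106 to 407 in D2. Between D1 and D2 in Control, 5 of 8 interneuron and 4 of 5 cortical markers were called higher in D1 by edgeR, and 5 of 5 endothelial and 4 of 6 astrocyte markers lower. The part of these cells in the results for Gria4, Cnih3 and Cacng4 was not tested.

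The genes whose log2 CPM followed each member most closely over the 30 libraries were read from 8866 genes with a mean of at least 10 CPM. These Pearson correlations are descriptions, since the points share library, depth and cell makeup. Slc17a7 was the closest to Cnih3, at r = 0.96, followed by Nxph3, which encodes a neurexophilin, at 0.96. Pde1a, a calcium-dependent phosphodiesterase, and Cadps, a vesicle priming factor, followed Gria4 at 0.93 each. Foxp1 and Bcl11b, transcription factors of striatal projection neurons, followed Cacng4 at 0.98 and 0.97. Lmo4 and Srp19 followed Cacng2 at 0.95 each, and Mtdh and Esf1 followed Gria2 at 0.96 and 0.95. The closest to Gria1 was Aff4 at 0.88, to Gria3 Kbtbd7 at 0.89, to Cacng3 Tm9sf1 at 0.95 and to Cnih2 Scarb1 at 0.93.

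Between members, Cacng2 and Cacng4 varied together, at r = 0.86 over 30 libraries, 0.40 within D1 and 0.96 within D2. Without D2 Susceptible replicates 1 and 2 the value within D2 was 0.89. Gria4 and Cnih3 had r = 0.82 over all libraries but 0.37 within D1 and 0.51 within D2, and -0.28 within D2 without those 2 libraries. Gria2 and Cnih2 varied in opposite directions in both classes, at -0.81 within D1 and -0.92 within D2 (-0.85 without those libraries).

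The stress comparisons within each class asked whether the members differed between Control, Resilient and Susceptible mice. In D1 libraries, by edgeR, 0 of 9 were called in any of the 3 D1 comparisons, 0 had an unadjusted p under 0.05, and DESeq2 called 0 as well. Over all genes edgeR called 0 (0%) in each, with 465, 503 and 675 genes at an unadjusted p under 0.05 for Susceptible against Control, Resilient against Control and Susceptible against Resilient. The log2 changes ran from -0.29 (Cnih3) to 0.16 (Cnih2) for Susceptible against Control, from -0.17 (Gria4) to 0.10 (Cacng4) for Resilient against Control, and from -0.29 (Cacng2) to 0.15 (Cacng3) for Susceptible against Resilient. In the last of these Cacng2 was the 1 member whose ranges did not overlap, at 106.6 to 144.6 CPM in Susceptible and 147.2 to 178.1 in Resilient, where 1.12% of all genes did not.

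In D2 libraries, Resilient differed from Control by log2 values from -0.33 (Cacng4) to 0.21 (Gria3), with 0 of 9 called by edgeR or DESeq2. Of the 9, Cnih3 and Gria3 had an unadjusted p under 0.05, and edgeR called 0 of all genes (0%), with 814 at an unadjusted p under 0.05. Cnih3 was -0.32 (SE 0.15) there.

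For D2 Susceptible against Control, edgeR called 0 of 9 members and 0.00516% of all genes, and DESeq2 also called 0 of 9. At an unadjusted p under 0.05 stood 6 members and 3038 of the 19368 genes. Cacng2 was at 0.58 (SE 0.19, adjusted p = 0.182), Cacng4 at 0.61 (SE 0.21, adjusted p = 0.189), Cnih2 at -0.47 (SE 0.17, adjusted p = 0.198) and Cnih3 at -0.46 (SE 0.15, adjusted p = 0.175), on the log2 scale and by edgeR. Gria3 at 0.20 and Gria4 at -0.30 were the other 2. Leaving out D2 Susceptible replicate 3 brought Cacng2, Cacng4, Cnih2 and Cnih3 past the threshold, in a fit that called 4.19% of all genes. Leaving out replicates 1 and 2 turned Cacng2 to -0.020 and Cacng4 to -0.079. Cnih2 was then at -0.13, Cnih3 at -0.27, Gria3 at 0.12 and Gria4 at -0.081.

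D2 Susceptible against Resilient had the largest differences of the stress comparisons. Cacng4 was at 0.94 (SE 0.21, adjusted p = 0.0558), Cacng2 at 0.80 (SE 0.19, adjusted p = 0.0586) and Gria4 at -0.45 (SE 0.14, adjusted p = 0.0896), so that edgeR called 0 of 9, beside 0.0516% of all genes, 0.0258% in each direction (0.0413% with DESeq2's size factors). These 3 were the members at an unadjusted p under 0.05, as were 3693 of the 19368 genes. DESeq2 called these 3, with adjusted p of 0.00182, 0.00532 and 0.0424, where it called 5.04% of all genes. The call also appeared by edgeR for Cacng2 and Cacng4 when D2 Susceptible replicate 3, 4 or 5 was left out, and for Gria4 without replicate 3 or 5. Those fits called 9.93%, 2.08% and 8.11% of all genes. Without replicates 1 and 2 the values were 0.25 for Cacng4, 0.20 for Cacng2 and -0.22 for Gria4, with adjusted p of 0.913, 0.955 and 0.945 by edgeR.

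**Figure D4:**
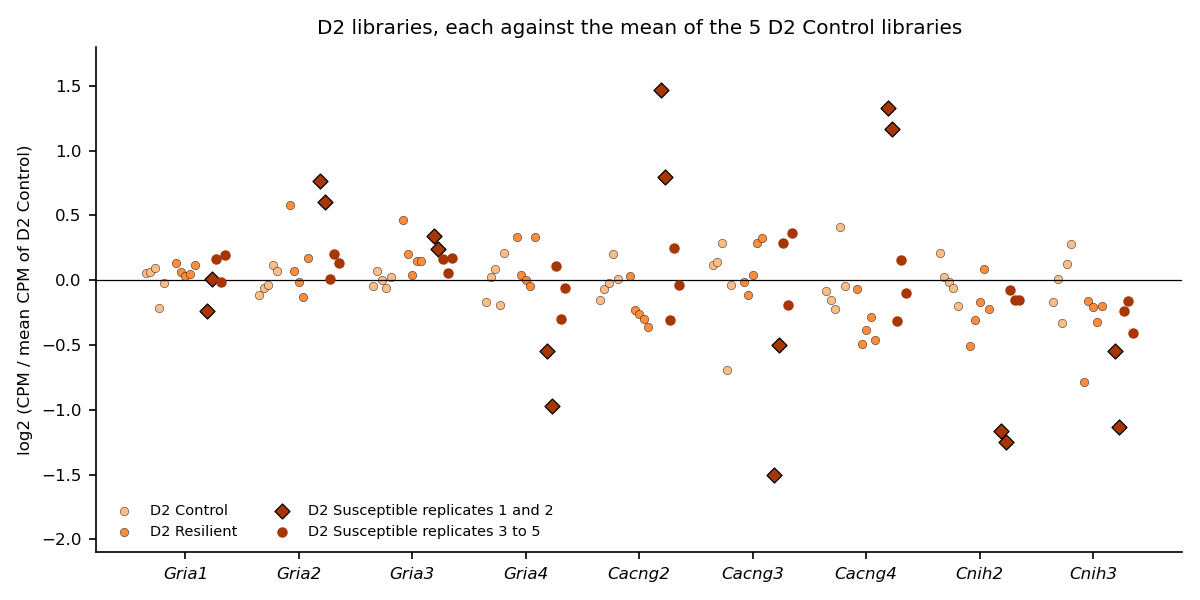
Log2 ratio of each D2 library's CPM to the mean of the 5 D2 Control libraries (vertical axis) for 9 members (horizontal axis), with diamonds for D2 Susceptible replicates 1 and 2. The diamonds lie above the other 13 D2 libraries for Gria2, Cacng2 and Cacng4, and below them for Gria4 and Cnih2.

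The D2 Susceptible group was split by those libraries. Cacng4 measured 487 and 435 CPM in replicates 1 and 2 and 156 to 215 in replicates 3 to 5, against 138 to 257 in the other 10 D2 libraries. Cnih2 measured 60.1 and 56.5 CPM against 121 to 128 in replicates 3 to 5. Of the 9 members, 3 (Gria2, Cacng2, Cacng4) had both libraries above all 13 other D2 libraries, and 2 (Gria4, Cnih2) had both below.

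Some other measures also stood apart in these libraries, and others did not. Oligodendrocyte markers (7 of 7) summed to 1923 and 1486 CPM in replicates 1 and 2, where the other D2 libraries reached at most 1419.9. Endothelial markers summed to 303 and 223 CPM, against 53.3 to 272 in the D2 Control and Resilient libraries. Reads outside genes made up 11.1% and 10.4% of their reads, against 5.38% to 7.87% in D2 Susceptible replicates 3 to 5. The part of these in the members' levels was not tested.

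Whether stress changed a member differently in D1 and D2 was tested as the difference of the 2 changes. By edgeR 0 of 9 members and 0 of all genes (0%) were called in each of the 3 tests. For Susceptible against Resilient, Cacng2 was at -1.09 (SE 0.27, adjusted p = 0.213) and Cacng4 at -1.01 (SE 0.30, adjusted p = 0.236), and Gria4 was the other member at an unadjusted p under 0.05. DESeq2 called Cacng2 there, where it called 47 of the 19368 genes. With edgeR, Cacng2 and Cacng4 were called when D2 Susceptible replicate 3 was left out, where 0.789% of all genes were called. Without D2 Susceptible replicates 1 and 2 the values were -0.49 for Cacng2 and -0.33 for Cacng4 (adjusted p = 0.824 and 0.915, edgeR). For Susceptible against Control, Cacng2, Cnih2 and Gria3 had an unadjusted p under 0.05, and for Resilient against Control, Gria3 did. DESeq2 called 0 of 9 in those.

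Further proteins of the receptor complex differed between D1 and D2. Of 18 other auxiliary and assembly proteins 16 were tested. In Control 4 were called higher in D1 (Shisa6, Olfm1, Olfm2, Sacm1l) and 1 lower (Gsg1l) by edgeR. It called 1608 of the 19368 genes there. Shisa6, a CKAMP-family protein that holds AMPA receptors at synapses, had the largest difference of these 5, at 9.64 ± 2.15 CPM in D1 and 3.69 ± 0.478 in D2 Control (log2 1.39, SE 0.34, adjusted p = 0.00869). Gsg1l, an auxiliary subunit that dampens the channel, was at 193 against 252 CPM (log2 -0.39, SE 0.11). In Resilient 3 were called higher and 0 lower, where 6.65% of all genes were called. In Susceptible it was 5 higher and 2 lower, against 23.9% of all genes, the lower ones being Gsg1l and Frrs1l, an assembly factor in the endoplasmic reticulum. Without D2 Susceptible replicates 1 and 2 it was 4 higher (Olfm1, Olfm2, Olfm3 and Shisa6) and 0 lower, against 10.4%. The list's median log2 difference was 0.09, 0.12 and 0.24.

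Of 23 scaffold, trafficking and editing genes 22 were tested. In Control 3 were called higher in D1 and 2 lower, where 1608 of the 19368 genes were called. Nptxr and Nptx1, pentraxins that gather AMPA receptors at synapses, were at 359 ± 27.1 and 197 ± 38.0 CPM in D1 against 202 ± 17.8 and 114 ± 18.1 in D2 Control (log2 0.83 and 0.79). The scaffold Grip2 was the third. Myo6, a motor for endocytosis, was lower (log2 -1.09), as was Pick1, which binds GluA2 and its relatives (log2 -0.43). In Resilient 4 were called higher, among them Adarb1, the enzyme that edits AMPA subunit transcripts (log2 0.27), and 1 lower. Over all genes 1288 were called there. In Susceptible 6 were higher and 2 lower, against 23.9% of all genes, and without D2 Susceptible replicates 1 and 2 it was 4 and 2, against 10.4%. The list's median log2 difference was 0.06, 0.08 and 0.07.

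In the 6 stress comparisons within a class, edgeR called 0 genes of either list. At an unadjusted p under 0.05 stood 0 to 5 genes of each list per comparison. The highest counts were in D2 Susceptible comparisons. Against Control it was 5 of 22 on the scaffold list (Akap5, Ap2a1, Arc, Nptxr and Nsf), beside 3038 of 19368 genes. Against Resilient it was 5 of 16 on the auxiliary list (Cacng5, Frrs1l, Gsg1l, Sacm1l and Syndig1), beside 3693 of 19368 genes. Without D2 Susceptible replicates 1 and 2, edgeR also called 0 genes of either list in these comparisons.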

How the data were processed

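The authors deposited raw counts of reads per gene for 30 libraries, with no normalization. HISAT2, HTSeq and the builds GRCm38 and mm10 are named in the submitters' processing notes, and no version, annotation release or strandedness is given in the sources used here. Per the labels' protocols, polyribosomes were pulled down by the HA tag and 10 ng of RNA went into SMART-Seq v4 libraries. The series table and the files per library held the same counts in 30 of 30. Summary lines of unassigned reads (10.1% to 53.3% of a library) stayed out. Symbols and coordinates came from GENCODE M21 (GRCm38). Members overlap short or antisense genes (Cacng2 and A730060N03Rik, Cnih2 and Yif1a), whose reads cannot be told apart without strand.

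Genes were filtered with filterByExpr (minimum count 10, minimum total 15), which kept 19368, scaled by TMM and tested in 1 model of 6 groups with edgeR 4.0.16 (R 4.3.3), quasi-likelihood F test, two-sided, adjusted by Benjamini-Hochberg over all genes at 0.05 in each of 12 comparisons. CPM uses TMM-scaled library sizes. Alternatives used DESeq2 1.42.0, limma 3.58.1 voom weights, DESeq2 size factors, no filter, only the groups compared, a replicate block, and left-out libraries. The test was tried on simulated data. Members and lists were chosen with earlier results of these data known. All 10 members are described. Pathway genes are named from those past the threshold, and those named for an unadjusted p were chosen after their values were seen. Each member's closest genes are those of highest Pearson r. The 5 pools of a group are biological replicates per the labels' protocols, so p-values measure the spread between pools of mice.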

Additional observations from a re-analysis of the deposited data

Results flagged for a closer look

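Of 54 groups of 5 libraries examined for the 9 tested members, 2 held a library whose gap to its nearest neighbour exceeded 0.71 of the group's range, the 95% limit for 5 values. Chance alone marks about 1 group in 20. Cacng2 in D1 Resilient replicate 5 measured 178 CPM, against a group median of 155. Cacng4 in D2 Control replicate 4 measured 257 CPM, against a group median of 183. No cause was tested.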

How the results depend on the processing

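The log2 changes followed were 141, with 108 of members and 33 of pathway genes. The pathway changes were those past the threshold, while the members' changes were kept whatever their size. A case is a change under an alternative, so the same change can count more than once. The sign turned in 58 cases, beside 909 labelled as unchanged. All 58 were of members, which the choice of pathway changes favoured, and none was past the threshold on either side. With DESeq2, the sign turned in Gria3 from -0.012 to 0.0050 for D2 Susceptible against Resilient. Gria1 went from 0.00014 to -0.0060 for the D1 minus D2 change for Resilient against Control. With DESeq2 size factors, the sign turned in Gria3 from -0.012 to 0.0051 for D2 Susceptible against Resilient. Gria1 went from 0.00014 to -0.0060 for the D1 minus D2 change for Resilient against Control. Without D2 Susceptible replicates 1 and 2, the sign turned in Cacng2 from 0.58 to -0.020, Cacng3 from -0.17 to 0.17, Cacng4 from 0.61 to -0.079 for D2 Susceptible against Control. Cacng3 went from -0.29 to 0.053, Cnih2 from -0.26 to 0.081, Cnih3 from -0.14 to 0.048, Gria1 from -0.049 to 0.035, Gria2 from 0.22 to -0.043 for D2 Susceptible against Resilient. Cacng3 went from 0.19 to -0.14, Cacng4 from -0.59 to 0.10, Cnih3 from 0.17 to -0.013, Gria1 from 0.066 to -0.012, Gria4 from 0.16 to -0.058 for the D1 minus D2 change for Susceptible against Control. Cnih2 went from 0.32 to -0.014, Gria1 from 0.066 to -0.018 for the D1 minus D2 change for Susceptible against Resilient. Without these, D1 Susceptible replicate 1 and D2 Resilient replicate 5, the sign turned in Gria1 from 0.017 to -0.020 for D1 Susceptible against Resilient. Cacng2 went from 0.58 to -0.017, Cacng3 from -0.17 to 0.17, Cacng4 from 0.61 to -0.076 for D2 Susceptible against Control. Cacng3 went from -0.29 to 0.10, Cnih2 from -0.26 to 0.070, Cnih3 from -0.14 to 0.070, Gria1 from -0.049 to 0.037, Gria2 from 0.22 to -0.043 for D2 Susceptible against Resilient. Cacng3 went from -0.046 to 0.0070 for D1 against D2 in Resilient. Gria1 went from 0.087 to -0.030 for D1 against D2 in Susceptible. Cacng3 went from 0.19 to -0.13, Cacng4 from -0.59 to 0.10, Gria1 from 0.066 to -0.046, Gria4 from 0.16 to -0.085 for the D1 minus D2 change for Susceptible against Control. Gria1 went from 0.066 to -0.057 for the D1 minus D2 change for Susceptible against Resilient. With the replicate block, the sign turned in Gria1 from 0.00014 to -0.0015 for the D1 minus D2 change for Resilient against Control. With voom weights, the sign turned in Cacng4 from -0.078 to 0.031, Cnih2 from 0.066 to -0.031, Gria1 from 0.017 to -0.016, Gria2 from -0.12 to 0.063 for D1 Susceptible against Resilient. Cacng3 went from -0.17 to 0.088 for D2 Susceptible against Control. Cacng3 went from 0.12 to -0.059 for D2 Resilient against Control. Cacng3 went from -0.29 to 0.15, Cnih2 from -0.26 to 0.053, Gria1 from -0.049 to 0.071 for D2 Susceptible against Resilient. Gria1 went from 0.021 to -0.0081, Gria2 from -0.040 to 0.13 for D1 against D2 in Control. Cacng3 went from -0.046 to 0.051 for D1 against D2 in Resilient. Cnih2 went from 0.37 to -0.025, Gria1 from 0.087 to -0.034, Gria3 from -0.097 to 0.018 for D1 against D2 in Susceptible. Cacng3 went from 0.19 to -0.045, Gria1 from 0.066 to -0.026, Gria4 from 0.16 to -0.094 for the D1 minus D2 change for Susceptible against Control. Cacng3 went from 0.43 to -0.0045, Cnih2 from 0.32 to -0.084, Gria1 from 0.066 to -0.087, Gria2 from -0.34 to 0.0033 for the D1 minus D2 change for Susceptible against Resilient.

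Leaving out each library in turn turned the sign of 20 values. Cacng3 ran from -0.026 to 0.067, Cacng4 from -0.023 to 0.067 for D1 Susceptible against Control. Cacng3 ran from -0.080 to 0.031, Cnih2 from -0.021 to 0.15 for D1 against D2 in Resilient. Cacng3 ran from -0.018 to 0.20 for D2 Resilient against Control. Cacng3 ran from -0.35 to 0.028, Gria1 from -0.025 to 0.086 for D2 Susceptible against Control. Cacng4 ran from -0.13 to 0.019, Cnih2 from -0.0087 to 0.11, Gria1 from -0.021 to 0.042, Gria4 from -0.013 to 0.093 for D1 Susceptible against Resilient. Cnih3 ran from -0.11 to 0.0023, Gria2 from -0.19 to 0.050 for D1 Resilient against Control. Cnih3 ran from -0.21 to 0.0069, Gria3 from -0.00081 to 0.12 for the D1 minus D2 change for Susceptible against Resilient. Gria1 ran from -0.017 to 0.058, Gria2 from -0.10 to 0.14 for D1 against D2 in Control. Gria1 ran from -0.019 to 0.057 for the D1 minus D2 change for Resilient against Control. Gria1 ran from -0.094 to 0.0091, Gria3 from -0.054 to 0.058 for D2 Susceptible against Resilient.

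The number of members called moved as follows from edgeR's value. For D1 against D2 in Control it was 3, 5 with voom weights (adding Cnih2 and Gria3) and 2 with no filter; leaving out 1 library gave 2. In Resilient it was 1, and 2 with the replicate block, with only the groups compared, with voom weights, with DESeq2 and without the 4 libraries; leaving out 1 library gave 1 to 2. In Susceptible it was 5, 4 with no filter, and 3 with only the groups compared, with voom weights, and without D2 Susceptible replicates 1 and 2, alone or with the other 2 libraries; leaving out 1 library gave 4 to 7. For D2 Susceptible against Resilient it was 0, and 3 with DESeq2; leaving out 1 library gave 0 to 3. For D2 Susceptible against Control leaving out 1 library gave 0 to 4. For the D1 minus D2 change for Susceptible against Resilient it was 0, and 1 with DESeq2; leaving out 1 library gave 0 to 2.

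Over all genes, D1 against D2 gave 1608 calls in Control (2696 with only the groups compared, 5511 with voom), 1288 in Resilient (2184, 3412, and 2551 without the 4 libraries) and 4621 in Susceptible (915 with only the groups compared, 2123 without D2 Susceptible replicates 1 and 2, 2163 without the 4). D2 Susceptible against Control gave 1 call (255 with DESeq2, 4 with the replicate block, 0 to 828 leaving out 1 library), and D2 Susceptible against Resilient 10 (976 with DESeq2, 1 with voom, 0 with only the groups compared, 0 to 1964). D1 Resilient against Control gave 0 (180 with voom, 13 with only the groups compared), D1 Susceptible against Resilient 0 (14 with voom, 8 with DESeq2, up to 9 leaving out 1 library), and the D1 minus D2 changes 0 (up to 160 with voom for Resilient against Control and, for Susceptible against Resilient, 47 with DESeq2 and up to 156 leaving out 1 library). The replicate numbers did not pair the libraries: 0 of 75 pairs had r over 0.1 (range -0.168 to 0.0779), and 2 of 30 libraries correlated best with their own number. The cause of these shifts was not tested. Among the tested members Cnih3 and Gria4 had the lowest counts in any library, 297 and 544, both in D1 Susceptible replicate 1. The counting error at those counts was 5.8% and 4.3%.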
